A study of Mus musculus with 15 samples.

Results

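The genes described here are 10 genes of Leydig cells, the steroid-producing cells between the seminiferous tubules: Star, Cyp11a1, Cyp17a1, Hsd3b1, Hsd3b6, Hsd17b3, Lhcgr, Insl3, Sult1e1 and Fabp3. They were taken by symbol from the 50051 features of the RNA-seq count tables, and 9 of the 10 passed the filter on low counts. Strand-specific total RNA-seq of whole testis at postnatal day 28 covered 3 groups of B6D2F1 mice with 3 libraries each. The groups were Chr18-/- (homozygous, without the targeted pachytene piRNA locus of chromosome 18), Chr18+/- (heterozygous) and Chr18+/+ (wild type). Pachytene piRNAs are small RNAs of meiotic and haploid germ cells, and Leydig cells are somatic, so these genes are read in a tissue whose RNA comes mostly from other cells. The labels name no litter, batch or separate animals, so p-values measure the spread between libraries, which may be technical.

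Leydig cells make testosterone from cholesterol. Luteinizing hormone acts through its receptor Lhcgr and cAMP, the StAR protein moves cholesterol to the inner mitochondrial membrane, and Cyp11a1 cleaves it to pregnenolone. A 3β-hydroxysteroid dehydrogenase (Hsd3b1 or Hsd3b6), Cyp17a1 and Hsd17b3 then complete the path to testosterone. In mice at this age a fetal population of Leydig cells has been largely replaced by an adult population that is still maturing.

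Hsd3b1 and Hsd3b6 are near neighbours on chromosome 3 whose counts behaved differently in these libraries, so their sequences are shown first. Their coding sequences of 1122 bases each were 90.0% identical, with a longest identical run of 72 bases. Of the 50-base windows of the Hsd3b1 transcript, 2.10% also occurred in Hsd3b6, and 2.17% in the other direction, so that most stretches of this length are found in 1 of the pair. Hsd3b6 was closer to Hsd3b2 and Hsd3b3, which share 13.5% and 12.6% of its windows, and both of those stayed under 0.5 CPM (counts divided by the TMM-scaled size of the library, times 1e+06) in every library. The 60-base stretch of coding bases 55 to 114, where the pair differs most, holds 14 mismatches, marked by capitals (GENCODE, mm10, minus strand, chr3:98857851-98857910 for Hsd3b1 and chr3:98810933-98810992 for Hsd3b6).
Hsd3b1: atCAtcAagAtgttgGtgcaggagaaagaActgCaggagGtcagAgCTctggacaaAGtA
Hsd3b6: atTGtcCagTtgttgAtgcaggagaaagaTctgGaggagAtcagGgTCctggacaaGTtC

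RefSeq promoter windows on GRCm38.p6 were matched for 8 of the 10 genes, in 9 windows, and the 250 bases before each start were searched on both strands for motifs of transcription factors known to act in Leydig cells. The GATA motif AGATAA occurred in 2 of the 9 windows and in 9.99% of all 32851 windows. The core of the SF-1 (Nr5a1) motif, AAGGTCA, occurred in 1 of the 9 and in 4.08% of all. Its longer form CAAGGTCA, which contains the core, occurred in 0 of the 9 and in 1.33% of all. The promoters with a match follow, with the match in capitals: Hsd3b1 (chr3:98859795-98860044, minus strand, AGATAA as TTATCT on the opposite strand, beginning 134 bases before the start), Hsd3b6 (chr3:98814444-98814693, minus strand, AGATAA 31 bases before the start) and Sult1e1 (chr5:87591612-87591861, minus strand, AAGGTCA as TGACCTT on the opposite strand, 113 bases before the start).
Hsd3b1: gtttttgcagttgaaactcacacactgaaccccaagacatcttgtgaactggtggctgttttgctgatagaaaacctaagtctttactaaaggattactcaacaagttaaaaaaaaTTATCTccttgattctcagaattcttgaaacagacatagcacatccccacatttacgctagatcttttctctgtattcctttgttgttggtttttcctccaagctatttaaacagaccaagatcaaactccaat
Hsd3b6: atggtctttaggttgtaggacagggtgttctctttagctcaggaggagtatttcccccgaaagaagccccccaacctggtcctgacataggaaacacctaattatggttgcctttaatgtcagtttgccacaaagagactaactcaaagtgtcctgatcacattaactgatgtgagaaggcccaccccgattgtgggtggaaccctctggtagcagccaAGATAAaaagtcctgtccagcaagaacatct
Sult1e1: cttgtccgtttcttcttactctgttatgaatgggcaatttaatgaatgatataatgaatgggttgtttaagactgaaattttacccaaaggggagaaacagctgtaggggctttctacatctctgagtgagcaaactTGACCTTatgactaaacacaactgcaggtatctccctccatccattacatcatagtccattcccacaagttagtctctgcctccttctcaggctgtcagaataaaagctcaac

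Library totals lay between 21684791 and 41513634 counted fragments. The chromosome 18 precursor 18_qE1_36451_1, which checks the labels, had 4, 6 and 3 counts in Chr18-/- libraries, 8948, 3983 and 4422 in Chr18+/- libraries and 9595, 7283 and 5609 in Chr18+/+ libraries. Within groups, no pair of libraries agreed within sampling noise (chi-square per degree of freedom 3.12 to 50.7), and Chr18+/+ library 1 and Chr18+/- library 1 lay farthest from the others of their groups. The 10 genes together took 0.0518 to 0.0676% of the counts in Chr18-/- libraries, 0.0562 to 0.0756% in Chr18+/- libraries and 0.111 to 0.137% in Chr18+/+ libraries.

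Most of the Leydig cell genes were at 13.5 to 58.0% of their wild-type level in both mutant genotypes, while Hsd3b6 and Lhcgr did not pass the test. Against Chr18+/+, 6 of the 9 genes tested were lower in Chr18-/- testes and 0 were higher (edgeR quasi-likelihood test, Benjamini-Hochberg adjusted over 20782 features, adjusted p under 0.05). Of all features tested, 11.1% were lower in Chr18-/- and 9.77% were higher, 20.9% in all. In Chr18+/- testes 7 of the 9 were lower and 0 higher, against 12.7% of all features lower and 11.1% higher, or 23.9% in either direction. The median log2 fold change of the 9 genes was -1.15 in Chr18-/- and -1.26 in Chr18+/-, against -0.01 and 0.00 over all features tested. Libraries did not overlap for 7 of the 9 genes in either comparison, against 42.6% of all features for Chr18-/- and 42.1% for Chr18+/-. Both comparisons share the wild-type libraries. In a whole testis, fewer Leydig cells and less RNA per Leydig cell cannot be told apart.

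**Figure D1:**
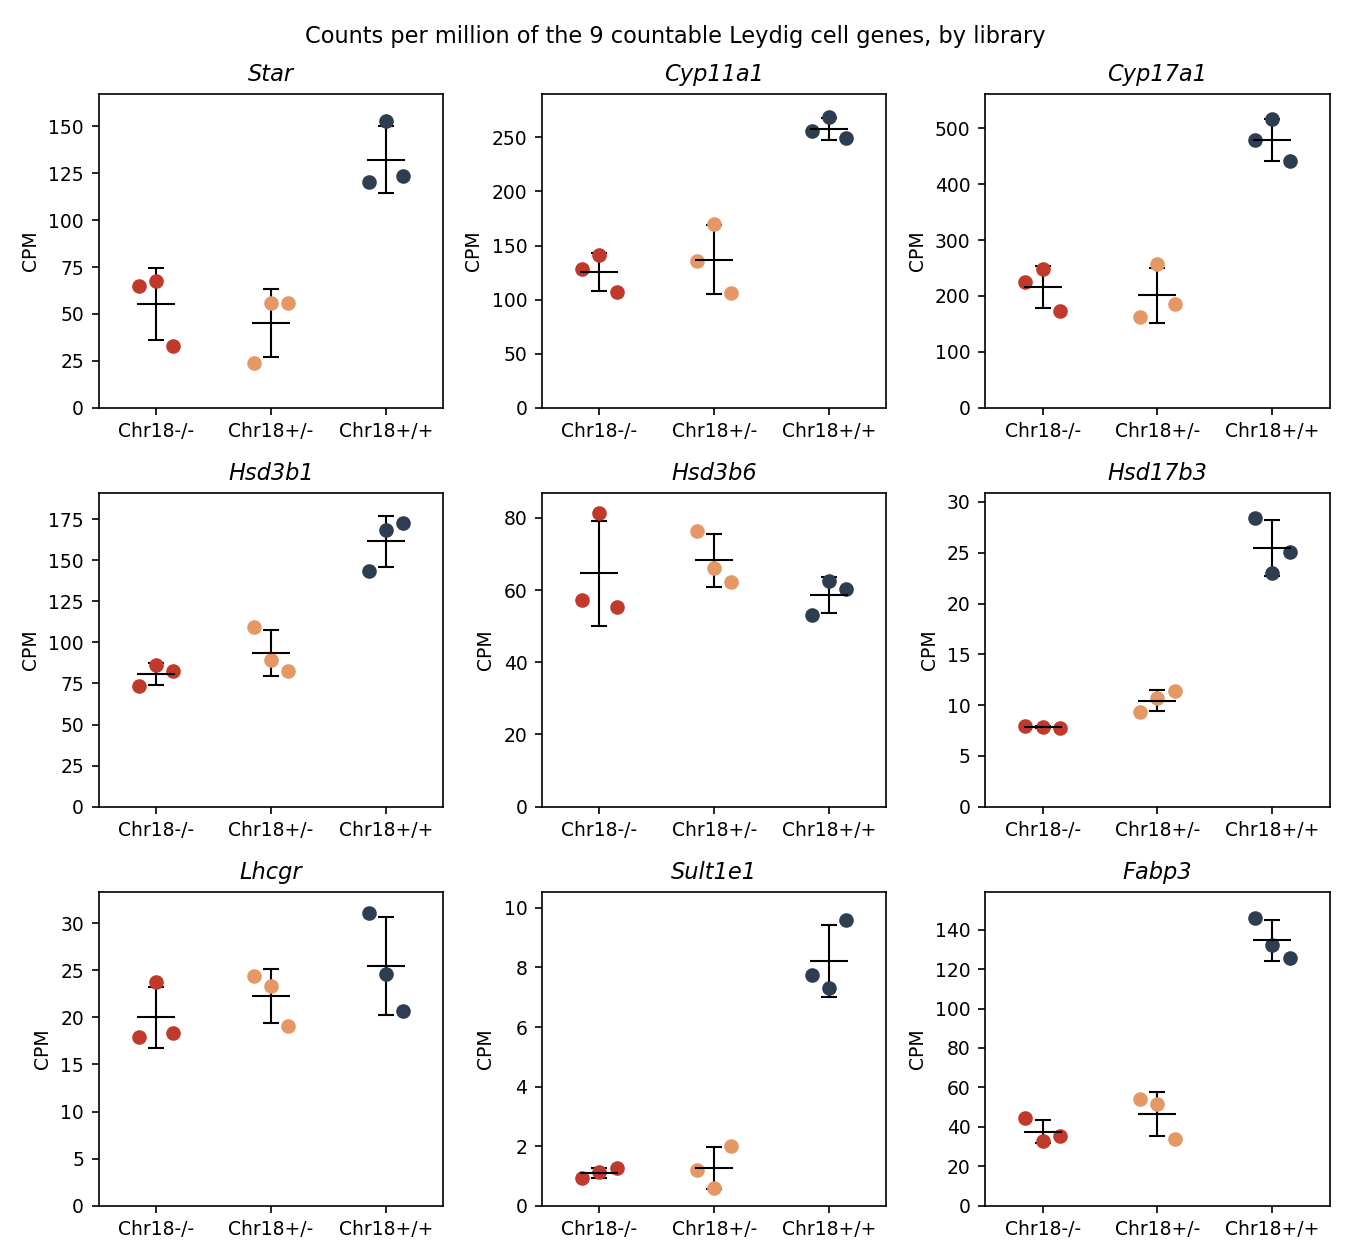
Each panel plots 1 gene, with CPM on the vertical axis and the 3 groups on the horizontal axis; points are libraries, the horizontal bar is the mean and the error bar 1 SD (n = 3). All mutant libraries lie below all wild-type libraries for every gene except Hsd3b6 and Lhcgr.

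The receptor at the head of the pathway, Lhcgr (chr17:88741549-88791976, minus strand), had 17.9, 23.8 and 18.4 CPM in Chr18-/- libraries, 24.4, 23.3 and 19.0 CPM in Chr18+/- libraries, and 31.1, 24.6 and 20.7 CPM in Chr18+/+ libraries. The 3 groups overlapped, and wild type alone spread as widely as the difference between the groups. Lhcgr did not pass, with a log2 fold change of -0.35 ± 0.16 (SE) in Chr18-/- (adjusted p = 0.136) and -0.20 ± 0.16 in Chr18+/- (adjusted p = 0.393).

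Star (chr8:25806555-25815982, plus strand), the cholesterol carrier whose synthesis luteinizing hormone acutely raises, had 65.0, 67.7 and 33.0 CPM in Chr18-/- libraries. It had 24.0, 55.6 and 55.9 CPM in Chr18+/- libraries and 121, 153 and 123 CPM in Chr18+/+ libraries. The mutant libraries lay below all wild-type libraries, with 1 library in each mutant group well below its other 2. Star was lower in Chr18+/- (log2 fold change -1.56 ± 0.39, adjusted p = 0.0288) and missed the threshold in Chr18-/- (-1.26 ± 0.39, adjusted p = 0.0596). Both calls turned on single choices: adjusted p ranged from 0.0101 to 0.152 for Chr18-/- and from 0.00198 to 0.0824 for Chr18+/- over 18 alternatives. Without Chr18+/- library 1, adjusted p was 0.0101 for Chr18-/-, and leaving out any 1 wild-type library gave 0.0637 to 0.0824 for Chr18+/-.

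Cyp11a1 (chr9:58006411-58027023, plus strand), the side-chain cleavage enzyme that commits cholesterol to steroids, had 128, 141 and 107 CPM in Chr18-/- libraries and 135, 169 and 106 CPM in Chr18+/- libraries. Chr18+/+ libraries had 256, 269 and 249 CPM. No mutant library reached the wild-type range, and the mutant groups overlapped each other. Cyp11a1 fell by 1.04 ± 0.15 on the log2 scale in Chr18-/- (adjusted p = 0.00120) and by 0.91 ± 0.15 in Chr18+/- (adjusted p = 0.00252). The first 1041 bases of Cyp11a1, 5.05% of its gene body, are shared with Gm17322 on the same strand, and fragments there were not counted.

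Hsd3b1 (chr3:98852194-98859794, minus strand) converts pregnenolone and its products to the next steroids of the path and is the isoform of gonads and adrenals. It had 73.5, 86.4 and 82.5 CPM in Chr18-/- libraries, 109, 89.0 and 82.6 CPM in Chr18+/- libraries, and 144, 168 and 172 CPM in Chr18+/+ libraries. Hsd3b1 was lower in Chr18-/- (log2 fold change -0.998 ± 0.117, adjusted p = 0.000198) and in Chr18+/- (-0.78 ± 0.12, adjusted p = 0.00118). 

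Hsd3b6 (chr3:98805504-98814443, minus strand), in mouse an isoform of adult-type Leydig cells, had 57.3, 81.3 and 55.2 CPM in Chr18-/- libraries and 76.4, 66.2 and 62.3 CPM in Chr18+/- libraries. Chr18+/+ libraries had 53.0, 62.5 and 60.4 CPM. All groups overlapped. The log2 fold change was 0.14 ± 0.14 in Chr18-/- (adjusted p = 0.507) and 0.22 ± 0.14 in Chr18+/- (adjusted p = 0.273). Without Chr18-/- library 2, the sign for Chr18-/- turned (-0.06, adjusted p = 0.770).

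The ratio of Hsd3b6 to Hsd3b1 counts within each library, which needs no scaling between libraries, set the pair apart. It was 0.780, 0.941 and 0.669 in Chr18-/- libraries, 0.699, 0.744 and 0.753 in Chr18+/- libraries, and 0.369, 0.372 and 0.350 in Chr18+/+ libraries. Every mutant library had a higher ratio than every wild-type library. With 3 against 3 libraries, the 2-sided exact permutation p was 0.1 for either mutant group, the smallest it can be, so that this ratio, chosen after the values were seen, cannot pass a threshold of 0.05.

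Cyp17a1 (chr19:46667165-46672974, minus strand), which makes androgen precursors by 17α-hydroxylation and 17,20-lyase activity, had 226, 248 and 174 CPM in Chr18-/- libraries and 161, 257 and 185 CPM in Chr18+/- libraries. It had 479, 517 and 442 CPM in Chr18+/+ libraries. The highest mutant library stayed far under the lowest wild-type one. Cyp17a1 was lower in Chr18-/- (log2 fold change -1.15 ± 0.17, adjusted p = 0.00163) and in Chr18+/- (-1.26 ± 0.17, adjusted p = 0.00115).

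Hsd17b3 (chr13:64058274-64089201, minus strand), which carries out the last step from androstenedione to testosterone, had 7.90, 7.83 and 7.78 CPM in Chr18-/- libraries. It had 9.31, 10.7 and 11.3 CPM in Chr18+/- libraries and 28.4, 23.0 and 25.1 CPM in Chr18+/+ libraries. This was the largest difference among the 6 genes of the path from cholesterol to testosterone in Chr18-/- (log2 fold change -1.70 ± 0.12, adjusted p = 2.40e-06), and it was lower in Chr18+/- as well (-1.29 ± 0.12, adjusted p = 2.97e-05). 

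A pair of genes outside the core path had larger or similar differences. Sult1e1 (chr5:87575969-87591594, minus strand), an oestrogen sulfotransferase that inactivates oestrogens, had 0.921, 1.12 and 1.27 CPM in Chr18-/- libraries and 1.21, 0.602 and 1.99 CPM in Chr18+/- libraries. It had 7.74, 7.31 and 9.60 CPM in Chr18+/+ libraries. Behind these levels stood 26, 32 and 33 fragments in Chr18-/-, 53, 18 and 58 in Chr18+/- and 251, 198 and 211 in Chr18+/+. Sult1e1 fell by 2.89 ± 0.31 on the log2 scale in Chr18-/- (adjusted p = 0.000151) and by 2.69 ± 0.30 in Chr18+/- (adjusted p = 0.000219).

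Fabp3 (chr4:130308595-130315463, plus strand), a cytosolic fatty acid carrier, had 44.3, 33.0 and 35.5 CPM in Chr18-/- libraries and 54.3, 51.7 and 33.8 CPM in Chr18+/- libraries. It had 146, 132 and 126 CPM in Chr18+/+ libraries. The mutant libraries stayed well under all wild-type ones. Its log2 fold change was -1.84 ± 0.17 in Chr18-/- (adjusted p = 7.56e-05) and -1.53 ± 0.17 in Chr18+/- (adjusted p = 0.000294).

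Insl3 (chr8:71689214-71690575, plus strand), the insulin-like hormone of Leydig cells that drives testis descent, was listed at 0 in all 9 libraries. Its whole gene body of 1362 bases lies inside Jak3 on the same strand, where the counting assigned fragments to neither gene, so the value does not measure Insl3. Jak3 had 8.64, 6.40 and 6.35 CPM in Chr18-/- libraries, 8.97, 7.79 and 7.43 CPM in Chr18+/- libraries and 10.7, 7.91 and 8.37 CPM in Chr18+/+ libraries, from the part of it outside Insl3.

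**Figure D2:**
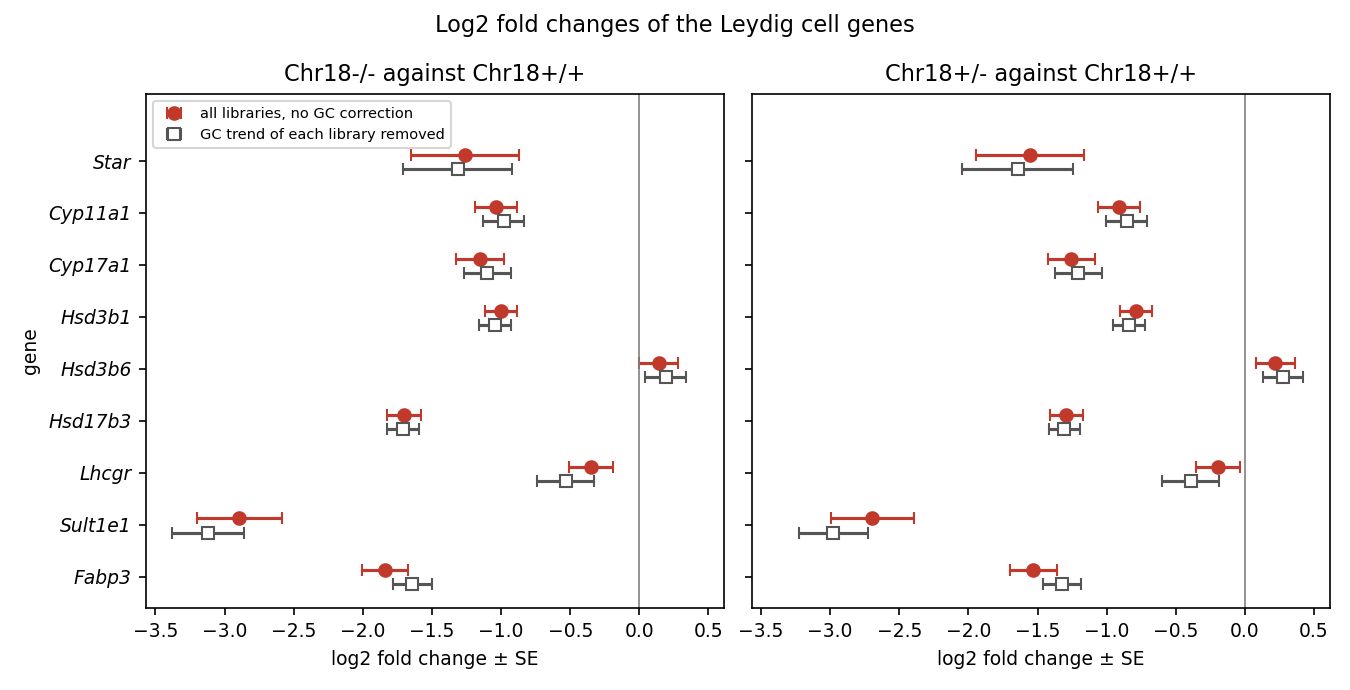
Log2 fold changes with SE of the 9 genes (rows) in Chr18-/- (left) and Chr18+/- (right) against Chr18+/+, from edgeR; filled circles are the fit on all libraries and open squares the fit after the GC trend of each library was removed. All genes but Hsd3b6 lie below 0 in both comparisons, and Sult1e1 and Fabp3 move the most between the fits among the genes that passed.

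Between the mutant groups, 0 of the 9 genes passed in Chr18-/- against Chr18+/-, and 0.0289% of all features did (0.0144% lower and 0.0144% higher, 6 features in all, with 628 at an unadjusted p under 0.05). DESeq2 also called 0 of the 9. Hsd17b3 was the 1 gene whose mutant groups did not overlap, against 8.31% of all features. Its log2 fold change was -0.41 ± 0.12 (unadjusted p = 0.00491, adjusted p = 1.00), and those of the other 8 genes lay between -0.31 and 0.30. Of the 9, Hsd17b3 was thus the gene with an unadjusted p under 0.05.

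Levels of different genes were set side by side as CPM per kb of merged exons. Counts cover introns too, so genes with long introns gain from unspliced RNA. In Chr18+/+, Cyp17a1 stood first (221 ± 17.3, SD, n = 3) and was followed by Fabp3 (164 ± 12.7), Hsd3b1 (87.0 ± 8.36) and Cyp11a1 (53.6 ± 2.08). Hsd3b6 (32.6 ± 2.77) and Star (32.2 ± 4.39) did not differ beyond their spread. Hsd17b3 (19.8 ± 2.14), Lhcgr (9.97 ± 2.05) and Sult1e1 (6.62 ± 0.978) came last.

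In Chr18-/-, Cyp17a1 (99.7 ± 17.6 CPM per kb) still led. Fabp3 (45.7 ± 7.19), Hsd3b1 (43.6 ± 3.56) and Hsd3b6 (35.9 ± 8.05) overlapped as neighbours, and Cyp11a1 (26.1 ± 3.58) came below them. Star (13.4 ± 4.69), Lhcgr (7.84 ± 1.28), Hsd17b3 (6.09 ± 0.0470) and Sult1e1 (0.888 ± 0.141) followed. Hsd17b3 thus lay under Lhcgr in every Chr18-/- library and above it in every Chr18+/+ library. In Chr18+/-, the order was Cyp17a1 (92.8 ± 22.9), Fabp3 (56.6 ± 13.6), Hsd3b1 (50.5 ± 7.50), Hsd3b6 (37.9 ± 4.04), Cyp11a1 (28.5 ± 6.62), Star (11.0 ± 4.46), Lhcgr (8.72 ± 1.11), Hsd17b3 (8.12 ± 0.804) and Sult1e1 (1.02 ± 0.562). There Fabp3 overlapped Hsd3b1, Hsd3b6 overlapped Cyp11a1, and Star, Lhcgr and Hsd17b3 overlapped in turn. With gene body length in place of exon length, 7 of the 9 ranks in Chr18+/+ moved, and Cyp17a1 stayed first.

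Other enzymes of androgen metabolism did not all go the way of Hsd17b3. Of the 12 genes tested in that list, 2 were higher and 1 lower in Chr18-/-. Over all features, 9.77% were higher and 11.1% lower there, 20.9% in all, and 23.9% were called in Chr18+/-. The list as a whole was thus called about as often as all features in Chr18-/-. Srd5a1, the 5α-reductase typical of immature Leydig cells in rodents, had 12.3 ± 2.10 CPM in Chr18-/-, 12.1 ± 1.32 CPM in Chr18+/- and 6.75 ± 0.674 CPM in Chr18+/+ (SD, n = 3 each). Akr1c14, the 3α-hydroxysteroid dehydrogenase that acts on its products, had 8.34 ± 2.21 CPM in Chr18-/-, 7.63 ± 1.11 CPM in Chr18+/- and 4.24 ± 0.334 CPM in Chr18+/+. Both passed in Chr18-/- (log2 fold changes 0.87 ± 0.15 and 0.98 ± 0.19, adjusted p = 0.00282 and 0.00513) and in Chr18+/- (0.84 and 0.85, adjusted p = 0.00322 and 0.00897). With the GC trend removed, Akr1c14 missed in Chr18+/- (adjusted p = 0.0560) and Srd5a1 passed (adjusted p = 0.00148). Hsd17b1 was the gene lower in Chr18-/- (log2 fold change -1.29, adjusted p = 0.0332). In Chr18+/-, 3 genes of the list were higher, with Srd5a2 (0.91, adjusted p = 0.0363) as the third, and Hsd17b1 was lower (-1.16, adjusted p = 0.0369). Both genes had few counts. Hsd17b1 had means of 0.241 CPM in Chr18-/-, 0.267 CPM in Chr18+/- and 0.591 CPM in Chr18+/+. Srd5a2 had 1.56 CPM in Chr18+/- and 0.826 CPM in Chr18+/+. The list had, with the GC trend removed, 2 higher and 1 lower in Chr18-/- but 1 higher, Srd5a1, and 0 lower in Chr18+/-.

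Ratios of 2 further pairs within a library were again chosen after the values were seen. Hsd17b3 to Srd5a1 was 0.785, 0.552 and 0.608 in Chr18-/- libraries, 0.685, 0.930 and 1.02 in Chr18+/- libraries and 3.78, 3.60 and 3.96 in Chr18+/+ libraries. Star to Lhcgr was 3.63, 2.85 and 1.80 in Chr18-/- libraries, 0.980, 2.39 and 2.94 in Chr18+/- libraries and 3.88, 6.23 and 5.96 in Chr18+/+ libraries. No mutant library overlapped wild type in either ratio, and for each the exact permutation p against wild type was 0.1, the smallest that 3 against 3 allows.

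**Figure D3:**
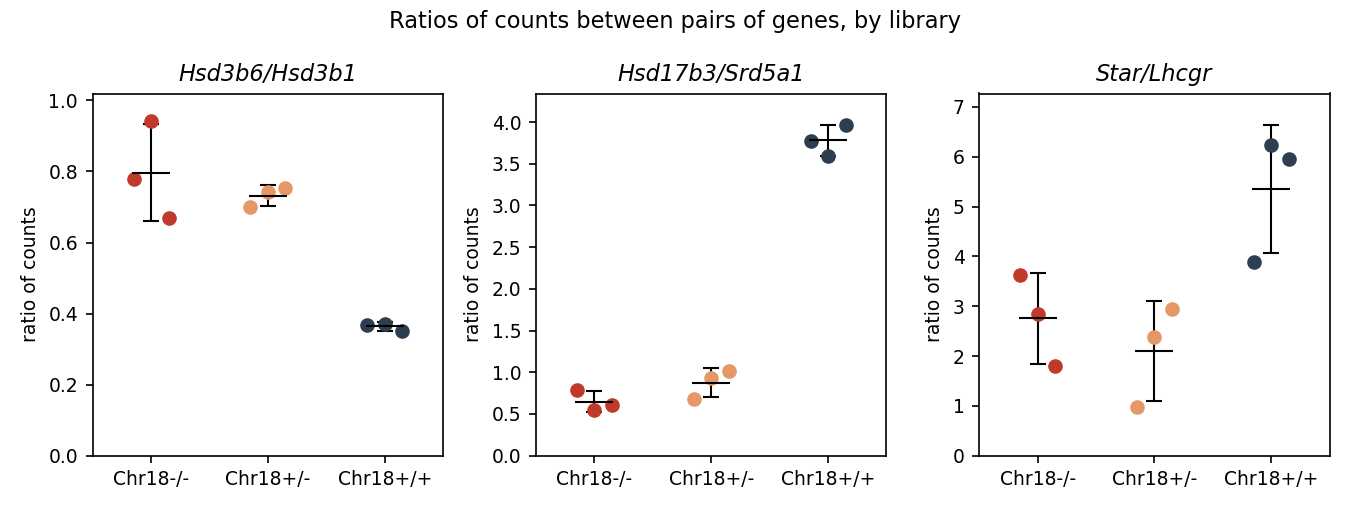
Ratios of counts between pairs of genes (vertical axes) in each library, by group (horizontal axes); points are libraries, bars the mean and 1 SD (n = 3). Hsd3b6 to Hsd3b1 lies at 0.669 or above in mutant libraries and at 0.372 or below in wild type, and the other 2 ratios are lower in all mutant libraries.

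Of 12 tested genes in a list of other Leydig cell markers, 6 were lower and 0 higher in Chr18-/-. Over all features, 11.1% were lower and 9.77% higher there. Like the other lists, this one was chosen with earlier results of these data known. Ptgds, which makes prostaglandin D2, had 6.43 ± 1.49 CPM in Chr18-/- and 46.1 ± 1.98 CPM in Chr18+/+ (log2 fold change -2.84 ± 0.18, adjusted p = 1.29e-06). The carboxylesterase Ces1d (-2.04), the epoxide hydrolase Ephx1 (-1.54), the methyltransferase Bhmt (-1.33), the adhesion molecule Vcam1 (-1.04) and Nr5a1 (-0.76) were the other 5, with adjusted p between 6.93e-05 and 0.00763. In Chr18+/-, the same 6 genes were lower and 2 were higher, namely Pdgfra (0.33, adjusted p = 0.0437) and Aldh1a1 (0.44, adjusted p = 0.0210). With the GC trend removed, 6 were lower and 0 higher in Chr18-/-, and 4 lower and 0 higher in Chr18+/-.

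Among 17 steroidogenic regulators, 3 were lower and 1 higher in Chr18-/-. That is close to the share over all features, 20.9% in Chr18-/- (23.9% in Chr18+/-). Nr5a1 (SF-1), the nuclear receptor that activates most steroidogenic enzymes, had 29.2 ± 5.80 CPM in Chr18-/-, 30.5 ± 6.06 CPM in Chr18+/- and 49.4 ± 3.42 CPM in Chr18+/+ (log2 fold change -0.76 ± 0.16 in Chr18-/-, adjusted p = 0.00763). It was smaller with the GC trend removed (-0.37, adjusted p = 0.0448), and Sertoli cells express it too. Cebpb (-1.15, adjusted p = 0.0289) and Creb3l4 (-0.46, adjusted p = 0.00875) were lower and Creb1 (0.33, adjusted p = 0.0243) was higher. Cebpb had 1.72 ± 0.324 CPM in Chr18-/- and 3.79 ± 1.97 CPM in Chr18+/+ (SD, n = 3). It missed in 5 of 18 alternatives, among them with the GC trend removed (adjusted p = 0.302). Creb3l4 had 177 CPM in Chr18-/- and 244 CPM in Chr18+/+, and which cells of the testis its RNA came from was not tested. In Chr18+/- 4 were lower and 1 higher. Once the GC trend was removed, 2 were lower and 0 higher in Chr18-/-, and 1 lower and 0 higher in Chr18+/-. The medians of this list, without that removal, were -0.04 in both comparisons.

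Genes that supply or make cholesterol had small median differences, while their sums lay below wild type in both mutant groups. Of 14 supply genes, 2 were lower and 1 higher in Chr18-/-, and 1 was lower and 1 higher in Chr18+/-. The shares called over all features were 20.9% in Chr18-/- and 23.9% in Chr18+/-. The lipoprotein receptor Scarb1 was lower in Chr18-/- (log2 fold change -0.60 ± 0.10, adjusted p = 0.00235) and in Chr18+/- (-0.63 ± 0.10, adjusted p = 0.00190). Stard4, a cytosolic sterol carrier, was higher in Chr18-/- (0.49, adjusted p = 0.0173) and in Chr18+/- (0.57, adjusted p = 0.00780). With the GC trend removed, 1 was lower and 0 higher in Chr18-/-, and 1 lower and 1 higher in Chr18+/-. Of 19 cholesterol synthesis genes, 3 were lower in Chr18-/-, among them Fdps (-1.04) and Pmvk (-0.91), and Nsdhl was higher (0.46). In Chr18+/- 7 of the 19 were lower and 1 higher, where 12.7% of all features were lower and 11.1% higher. With the GC trend removed, 1 synthesis gene was lower and 0 higher in Chr18+/-. Medians of both lists lay between -0.18 and -0.05. The supply genes summed to 764 to 928 CPM in Chr18-/-, 696 to 869 CPM in Chr18+/- and 961 to 1049 CPM in Chr18+/+. The synthesis genes summed to 800 to 848, 777 to 820 and 881 to 911 CPM, in the same order. Most of each gap was a single gene, Lipe (means of 166, 152 and 271 CPM) and Fdft1 (250, 230 and 297 CPM). Neither passed the edgeR test in Chr18-/- (adjusted p = 0.148 for Lipe and 0.0660 for Fdft1). Lipe ran from 76.8 to 211 CPM within Chr18+/-. Which cells of the testis this RNA came from was not tested, so the sums do not measure cholesterol supply in Leydig cells.

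Partners and signals of the pathway varied, where 20.9% of all features were called in Chr18-/- and 23.9% in Chr18+/-. Of 6 electron donors of the steroidogenic P450 enzymes, Cyb5a, which aids the lyase activity of Cyp17a1, was higher in Chr18-/- (0.36, adjusted p = 0.0143) and Cyb5r3 lower (-0.57, adjusted p = 0.0162). In Chr18+/-, Por (-0.46, adjusted p = 0.0231) and Cyb5r3 (-0.51, adjusted p = 0.0227) were lower and 0 higher. Once the GC trend was removed, 1 donor was higher and 0 lower in each comparison, so that no lower call held. Of 23 hormone receptor and cAMP genes, 2 were higher and 1 lower in Chr18-/-, with the kinase subunit Prkar2b at 30.4 CPM in Chr18-/- and 18.8 CPM in Chr18+/+ (0.69 ± 0.12, adjusted p = 0.00240). The other 2 were Nr3c1 (0.31) and Pde4a (-0.32). In Chr18+/- 6 were higher and 2 lower. With the GC trend removed, 1 was higher (Prkar2b, 0.56, adjusted p = 0.00477) and 0 lower in Chr18-/-, and 2 were higher and 0 lower in Chr18+/-. Of the 9 3β-dehydrogenase symbols listed, 3 were tested, and Hsd3b1 was the 1 that passed.

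Cyp21a1, an adrenocortical 21-hydroxylase also known in mouse Leydig cells, was lower at 0.557 CPM in Chr18-/- and 0.561 CPM in Chr18+/-, against 1.49 CPM in Chr18+/+ (log2 fold changes -1.43 and -1.36, adjusted p = 0.0143 and 0.0137). It missed in Chr18+/- with the GC trend removed (adjusted p = 0.0506), without Chr18+/+ library 2 (0.0567) and without Chr18+/- library 3 (0.0574), and in Chr18-/- without Chr18+/+ library 2 (0.0606) and without Chr18-/- library 2 (0.0586). Of the 9 tested genes that answer to androgen in Sertoli cells, 3 were lower and 1 higher in Chr18-/- and likewise in Chr18+/-. Over all features, 11.1% were lower and 9.77% higher in Chr18-/-, and 12.7% lower and 11.1% higher in Chr18+/-. With the GC trend removed, 2 were lower and 1 higher in Chr18-/- and 2 lower and 0 higher in Chr18+/-. The tight junction gene Cldn3 (-1.98 in Chr18-/-, adjusted p = 0.00242; -2.01 in Chr18+/-, adjusted p = 0.00222) was among the lower ones. Rhox5, the best-known androgen target of Sertoli cells, did not pass (6.63 CPM in Chr18-/-, 6.32 CPM in Chr18+/- and 8.04 CPM in Chr18+/+; adjusted p = 0.374 and 0.262).

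**Figure D4:**
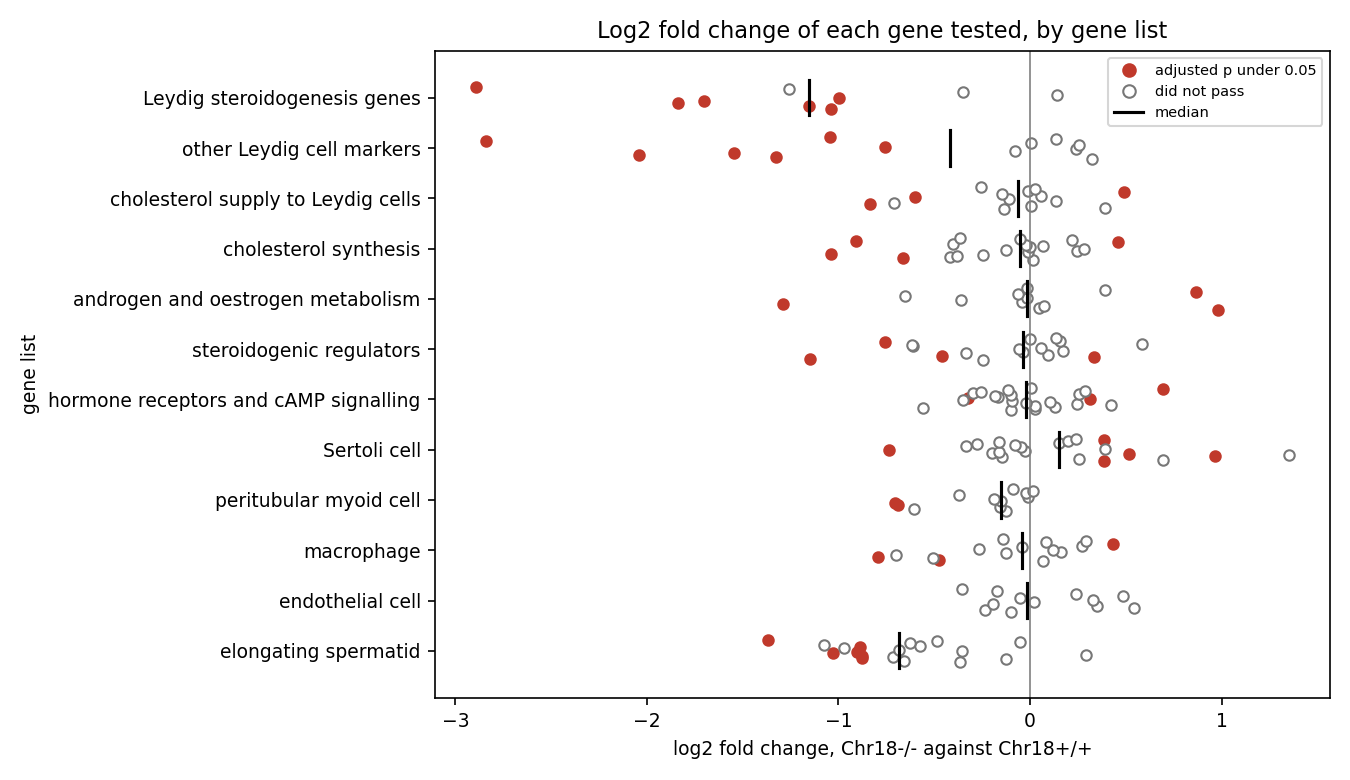
Each point is 1 tested gene, placed by its log2 fold change in Chr18-/- against Chr18+/+ (horizontal axis) within its gene list (vertical axis); filled points passed an adjusted p under 0.05 and vertical bars are list medians. The Leydig steroidogenesis genes have the lowest median of the lists drawn, -1.15, followed by elongating spermatid genes at -0.68; the epididymis list, not drawn, had a lower median of -1.35 over 4 genes with 0 calls.

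Other cell types were read from marker lists in the same libraries, where 20.9% of all features were called in Chr18-/- and 23.9% in Chr18+/-. The 21 tested Sertoli cell genes summed to 1526 to 1769 CPM in Chr18-/- libraries, 1470 to 1635 CPM in Chr18+/- libraries and 1537 to 1592 CPM in Chr18+/+ libraries, with 4 higher and 1 lower in Chr18-/- (7 and 1 with the GC trend removed). Endothelial genes had 0 of 12 called in either comparison (1 higher in Chr18-/- with the GC trend removed). Peritubular myoid genes had 2 of 12 lower in each mutant group. Their sums were 470 to 526 CPM in Chr18-/-, 508 to 545 CPM in Chr18+/- and 581 to 602 CPM in Chr18+/+. Most of that gap was Actg2, with a mean of 113 CPM in both mutant groups and 171 CPM in Chr18+/+. After removal of the GC trend, 0 myoid genes were called in Chr18-/-, and 2 were higher and 0 lower in Chr18+/-. Macrophage genes had 2 of 15 lower and 1 higher in each, with sums of 297 to 341 CPM in Chr18-/-, 309 to 359 CPM in Chr18+/- and 356 to 391 CPM in Chr18+/+. Most of this gap was Aif1, with a mean of 147 CPM in Chr18-/-, 151 CPM in Chr18+/- and 205 CPM in Chr18+/+. After removal of the GC trend, 1 was lower and 1 higher in Chr18-/-, and 0 lower and 1 higher in Chr18+/-. Adipose genes had 3 of 8 lower in each, all under 1.5 CPM in wild type (3 lower and 1 higher in each with the GC trend removed).

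Epididymal markers differed between single libraries. Of the 9 listed, 2 were at 0 in every library and 4 were tested, with 0 called and a median log2 fold change of -1.35 in Chr18-/- and -0.74 in Chr18+/-. Crisp1, a secreted epididymal protein, had 2.44, 0.0350 and 0.154 CPM in Chr18-/- libraries, 0, 0.134 and 10.6 CPM in Chr18+/- libraries and 2.47, 30.8 and 0.0910 CPM in Chr18+/+ libraries. Adam7, also epididymal, peaked in the same 2 libraries, at 1.13 CPM in Chr18+/- library 3 and 3.58 CPM in Chr18+/+ library 2. Without Chr18+/+ library 2, 6 of the 9 Leydig genes were lower in Chr18-/- and 6 in Chr18+/-. Without Chr18+/- library 3 the counts were also 6 and 6. Star missed in Chr18+/- under each (adjusted p = 0.0809 and 0.0559).

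Transcripts of elongating spermatids also summed lower in both mutant groups, where 20.9% of all features were called in Chr18-/- and 23.9% in Chr18+/-. The 19 elongating spermatid genes summed to 11595 to 14945 CPM in Chr18-/- libraries, 7201 to 16666 CPM in Chr18+/- libraries and 20021 to 20786 CPM in Chr18+/+ libraries, with 6 lower in Chr18-/- and 8 lower in Chr18+/-. With the GC trend removed, 2 were lower in each, and the medians were -0.50 and -0.57, against -0.68 and -0.78. In the round spermatid list 1 of 14 was higher and 0 lower in Chr18-/-, in the pachytene spermatocyte list 1 of 15 was higher and 2 lower, and in the spermatogonia list 3 of 14 were higher and 2 lower. These counts, with the GC trend removed, were 1 higher and 1 lower, 0 higher and 1 lower, and 4 higher and 1 lower, in the same order. The part of germ cells in the Leydig cell values was not tested. With library size set by the Sertoli cell list, 6 of the 9 Leydig genes were lower in Chr18-/- and 7 in Chr18+/-, with medians of -1.22 and -1.24. The Sertoli cell list is no fixed reference, as it had 4 genes higher and 1 lower in Chr18-/-. In Chr18+/- it had 5 higher and 1 lower. That scaling changed the split over all features, to 884 higher and 2319 lower in Chr18-/-, against 2030 higher and 2306 lower with TMM scaling. With library totals alone it was 2233 higher and 1672 lower, and 7 of the 9 Leydig genes were lower. In Chr18+/-, the split was 2315 higher and 2645 lower with TMM scaling and 3203 higher and 1580 lower with library totals alone.

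Differences from wild type followed GC content across all genes. Over 17372 features with a mean of at least 1 CPM, the Spearman correlation of the log2 fold change with transcript GC was -0.53 in Chr18-/- and -0.55 in Chr18+/-, and 0.07 between the mutant groups. The 9 Leydig genes span 37.8 to 53.9% GC, where the median log2 fold change of features within 2 points of each gene lay between -0.18 and 0.28 in Chr18-/- and between -0.21 and 0.30 in Chr18+/-. Sult1e1, the lowest in GC and largest in difference, stood at -2.89 where features of like GC had a median of 0.28. After the trend of each library was removed, 6 of the 9 genes were lower in Chr18-/- and 7 in Chr18+/-, with medians of -1.10 and -1.20. In that fit, 1213 of all 20782 features were lower and 1426 higher in Chr18-/-. In Chr18+/-, 1355 were lower and 1574 higher.

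**Figure D5:**
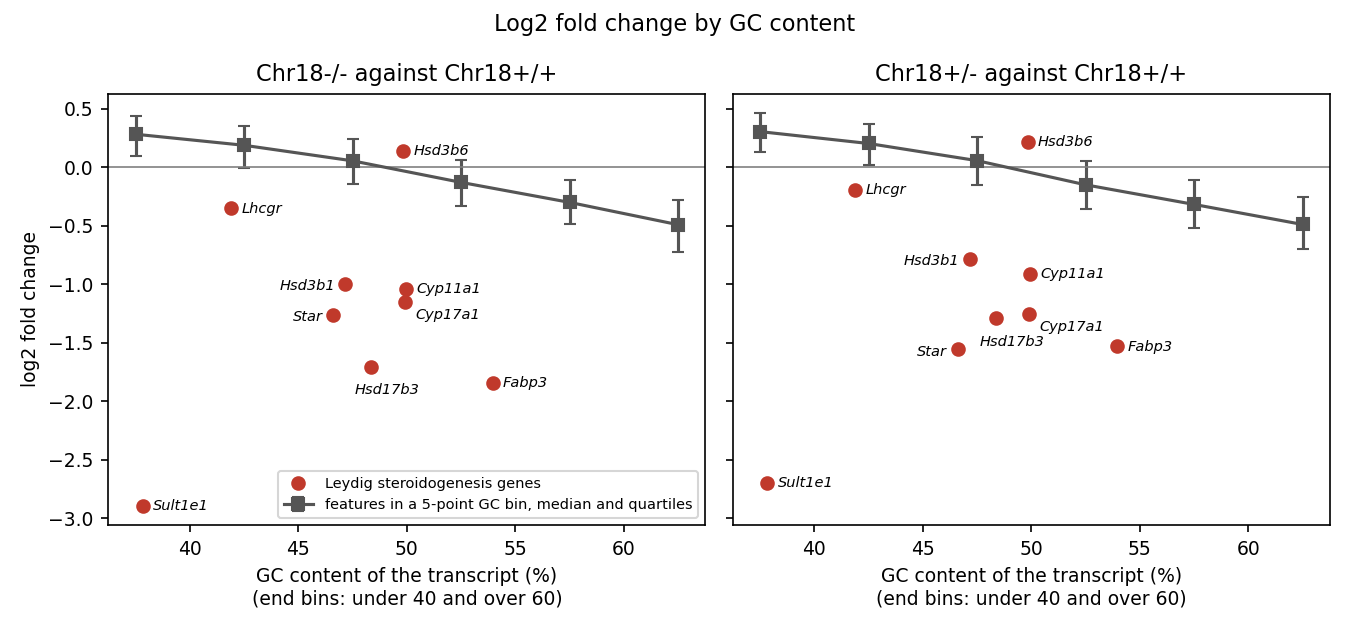
Log2 fold change (vertical axis) by GC content of the transcript in percent (horizontal axis) for Chr18-/- (left) and Chr18+/- (right) against Chr18+/+; squares and bars are the median and quartiles of features in each bin, circles the 9 Leydig genes. The bin medians run from 0.28 to -0.49 in Chr18-/-, and 8 of the 9 genes lie below the median of their bin.

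The genes most like the Leydig cell genes in pattern were sought among 11066 features by correlation of log2 CPM over 9 libraries with the mean standardised profile of the 9 genes. AU021092, Marveld1, Mtss1l, Wnt6 and Nacc2 came first, with Pearson r between 0.981 and 0.984. Their transcripts had 53.7 to 61.3% GC, in bins where the median feature was itself lower in Chr18-/- (-0.13 to -0.49). Wnt6 lost its call in 1 of 18 alternatives in each comparison with wild type, and Nacc2 in 1 for Chr18+/-. The part of GC content in this likeness was not tested. The profile was 0.867 to 1.06 in Chr18+/+ libraries and -0.931 to -0.176 in mutant libraries, so that r reflects mostly the gap to wild type. Among the Leydig genes themselves, Hsd17b3 was most like Fabp3 (r = 0.944), Sult1e1 (0.930) and Hsd3b1 (0.912), and Lhcgr was most like Cyp11a1 (0.654), Fabp3 (0.599) and Hsd17b3 (0.560). Hsd17b3 and Hsd3b6 had r = -0.413 over the same 9 libraries, which share depth and scaling.

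Small RNA libraries, 3 each of Chr18-/- and Chr18+/-, had been treated with periodate, which spares piRNAs for their methylated 3′ ends, and hold few reads of these genes. Star had 7, 8 and 9 counts in Chr18-/- libraries and 21, 10 and 7 counts in Chr18+/- libraries, of 1122409 to 1446726 and 939641 to 1861402 counts over genes. The groups overlapped at 7 counts, and 2 heterozygous libraries stood above all homozygous ones. Hsd3b1, Hsd3b6 and Lhcgr had 0 counts in all 6 libraries, which allows up to 0.780 CPM in Chr18-/- and 0.757 CPM in Chr18+/- (3 counts over the 3 libraries, counting error only). The other genes counted summed to at most 5 per genotype. On the strand opposite to the genes, RNA-seq gave fragments at Star in every library, at 4.43, 3.78 and 4.16 CPM in Chr18-/-, 4.42, 3.98 and 4.78 CPM in Chr18+/- and 3.36, 3.58 and 3.64 CPM in Chr18+/+. That is 5.58 to 12.6% of the sense count in Chr18-/- and 2.34 to 2.95% in Chr18+/+, and for the other genes the mean stayed under 0.7 CPM in every group.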

How the data were processed

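Testis RNA-seq (9 libraries) and small RNA (6 libraries) were grouped by the genotype in the labels. The files the authors deposited hold raw counts for each feature, without normalization. Per the file headers, featureCounts 1.6.2 counted proper pairs by strand over gene bodies with their introns, and left fragments in overlapping features of 1 strand uncounted; the annotation was GENCODE with piRNA precursors. The submitters' processing notes also name cutadapt 1.18, HISAT2 2.1.0, SAMtools 1.9, Bowtie2 2.2.5, Salmon 0.11.3 and DESeq2 1.20.0, with mm10 and mm9. Chromosome names and gene positions matched mm10. Symbols were found for 49326 of 49585 gene IDs.

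From the counts of the kit strand, edgeR 4.0.16 (limma 3.58.1, R 4.3.3) gave 1 robust quasi-likelihood fit over 9 libraries after filterByExpr (20782 features) and TMM scaling. CPM uses scaled library sizes. The threshold was an adjusted p under 0.05 (Benjamini-Hochberg); SE is the log2 fold change over the root of F. The fit was tested on simulated data. Small RNA was not tested. GC came from a later GENCODE release, and exon lengths from the annotation deposited with the small RNA counts. Of the features tested, 99.4% had a GC value.

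The members and the 21 other lists were chosen with earlier results of these data known. The text names all members. From each list, up to 4 genes were picked by the lowest adjusted p in Chr18-/-, with 1.5-fold, no overlap and 1 CPM. Genes that a small count needs were added. Vcam1, Rhox5, Aif1, Fdft1, the electron donors and the ratios were named after their values were seen. A few list genes are not reported here. Alternatives were DESeq2 1.42.0, 3 other scalings, 2 other filters, both strands summed, only the groups compared, each library left out, gene body length and, added after the data were seen, removal of GC trends by a natural spline with 5 degrees of freedom.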

Additional observations from a re-analysis of the deposited data

Results flagged for a closer look

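Star had a mean of 4.12 CPM of opposite-strand fragments in Chr18-/- libraries, against 3.53 CPM in Chr18+/+ libraries (SD 0.327 and 0.147, n = 3 each). It was marked because every Chr18-/- library lay above every wild-type library on a strand that the comparisons do not use. In the edgeR quasi-likelihood test on opposite-strand counts the difference did not pass (log2 fold change 0.34 ± 0.17, adjusted p = 0.232).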

How the results depend on the processing

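The Leydig genes called numbered 6 or 7 of 9 in both comparisons with wild type under all 18 alternatives, and Star was the gene that changed sides. Without 1 library they ranged from 6 to 7 in Chr18-/- and from 6 to 7 in Chr18+/-, and were 0 between the mutant groups. Over all features, removal of GC trends (chosen after seeing the data) called 2639 in Chr18-/- and 2929 in Chr18+/-, against 4336 and 4960; DESeq2 called 17 between the mutant groups, against 6. Without 1 library, calls ranged from 1873 to 4805 in Chr18-/-, from 2465 to 4737 in Chr18+/- and from 4 to 20 between the mutant groups; the libraries that moved them most were, for Chr18-/-, Chr18-/- library 3 (1873 without it), Chr18-/- library 2 (1974) and Chr18+/+ library 2 (2850), and for Chr18+/-, Chr18+/- library 3 (2465) and Chr18+/+ library 1 (3043).

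Signs turned for genes that had not passed. Hsd3b6 in Chr18-/- ranged from -0.060 (without Chr18-/- library 2) to 0.24 over single libraries left out. Between the mutant groups the ranges were -0.012 to 0.55 for Star, -0.28 to 0.057 for Cyp11a1, -0.032 to 0.32 for Cyp17a1, -0.28 to 0.0094 for Hsd3b6 and -0.51 to 0.23 for Sult1e1. The cause was not tested. Over all genes named, 1868 of the values under alternatives stayed on their side of the threshold, 115 lost a call, 37 gained one and 8 turned in sign. No paired analysis was possible because the RNA-seq labels number the libraries in 1 run over all groups and the small RNA counts were not tested. Sult1e1 rests on under 60 fragments in each mutant library.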
